A study of Homo sapiens with 18 samples.

Results

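The solute carriers described here are 137 human genes with an SLC symbol (SLC, a family number, A and a member number) and a mean of at least 5 CPM, counts scaled to the total of the library, over 18 RNA-seq libraries. The count files listed 338 such symbols among 60642, of which 190 stayed under the limit, 39 of them with no count in any library. A further 11 carriers above the limit were left out by name, as were 2 of those under it, 13 in all. The level itself therefore chose the members and is given below only as a description. The members closest above the limit were SLC25A45 at 5.12, SLC19A3 at 5.48 and SLC25A53 at 5.77 CPM, and the symbols closest below it were SLC16A10 at 4.93, SLC25A42 at 4.85 and SLC1A1 at 4.43 CPM.

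The libraries came from MDA-MB-231, a triple-negative breast cancer cell line with mesenchymal features, and the study asked how HP1γ and PRMT5 act on the genes that respond to the glucocorticoid receptor. Cells received 25 nM of a non-specific siRNA (siNS), of siRNA against HP1γ (siHP1γ) or of siRNA against PRMT5 (siPRMT5) for 48 h, and then either the vehicle ethanol (Eth) or 100 nM dexamethasone (Dex), a synthetic glucocorticoid, for 8 h. Each of the 6 conditions, siNS Eth, siNS Dex, siHP1γ Eth, siHP1γ Dex, siPRMT5 Eth and siPRMT5 Dex, had 3 replicates. All came from the one line, the siRNAs were pools against each gene, and depletion was transient.

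The libraries held 8682992 to 12472381 counts, of which the 137 carriers took 0.688 to 0.835%. The targeted messages were checked first. CBX3, the gene of HP1γ, was left at 6.0% of siNS with Dex and 3.89% without it after siHP1γ, and PRMT5 was left at 4.41% and 2.96% after siPRMT5. PRMT5 also stood at 78.7% and 83.9% of siNS in the siHP1γ cells with and without Dex. Of the markers of the line, VIM (at least 5610 CPM) and CD44 (at least 507 CPM) were high, while CDH1, ESR1, PGR and PTPRC did not exceed 0.218 CPM in any library. SPARC was low for a mesenchymal line, at 5.70 to 10.7 CPM, EPCAM stood at 8.42 to 14.5 CPM, ERBB2 at 24.1 to 35.1 CPM and PECAM1 at 1.09 to 7.99 CPM.

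Solute carriers are membrane proteins that move amino acids, sugars, nucleosides, metal ions, protons and mitochondrial metabolites across the plasma membrane or the membranes of organelles, by facilitated diffusion or by coupling one solute to the gradient of another. Carriers of the plasma membrane set what a cell can take up, those of lysosomes and the Golgi apparatus load or empty these compartments, and the SLC25 family serves the inner mitochondrial membrane. Glucocorticoids act through a nuclear receptor that binds DNA and changes the transcription of its target genes.

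Grouped by family number, the 137 members comprised 35 mitochondrial carriers, 23 carriers of metals and heme, 20 of amino acids, peptides and amines, 18 of inorganic ions and pH, 13 of nucleosides, vitamins, choline and fatty acids, 10 of carboxylates and organic ions, 9 of sugars and polyols and 9 of nucleotide sugars and other cargo of the secretory pathway. A family number is only a guide to the substrate, since SLC43A3, grouped here with the amino acid carriers, is known as a purine nucleobase transporter. Per kilobase of annotated exon, the most abundant member of each class over the 18 libraries was SLC25A5, an ADP/ATP carrier, at 402 CPM per kb, SLC38A1, a glutamine transporter, at 60.7, SLC20A1, a sodium-phosphate cotransporter, at 47.2, the zinc carrier SLC39A6 at 32.4, SLC35A4 at 31.4 and the equilibrative nucleoside transporter SLC29A1 at 21.0 CPM per kb, followed by the sugar carrier SLC50A1 and SLC10A3. The length took in every annotated exon of a gene, so this order depends on the annotation. SLC25A3 had more counts than SLC25A5, 760 against 625 CPM, but 8896 against 1555 bases of exon. SLC25A5, SLC38A1, SLC20A1, SLC39A6 and SLC29A1 did not pass the test for HP1γ depletion with Dex. Among these 5, SLC38A1 alone passed the test for PRMT5 depletion with Dex. SLC35A4 rose by 0.30 with siHP1γ Dex and fell by 0.19 with siPRMT5 Dex on the log2 scale, SLC50A1 fell by 0.27 and by 0.38, and SLC10A3 fell by 0.78 with siPRMT5 Dex and was not called with siHP1γ Dex (log2 0.00). The call of SLC35A4 with siPRMT5 Dex was lost without siNS Dex replicate 1 or 3 or siPRMT5 Dex replicate 2 (edgeR adjusted p up to 0.150) and with no filter on low counts (adjusted p = 0.0874). That of SLC50A1 with siHP1γ Dex was lost without siHP1γ Dex replicate 1 or 2 or any 1 siNS Dex library (edgeR adjusted p up to 0.121), with no filter (adjusted p = 0.0562) and with scaling by library size alone (adjusted p = 0.149).

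Dex raised 5 carriers and lowered 1 in siNS cells. The fold response was largest for SLC7A2, a cationic amino acid transporter that imports arginine and lysine, and for SLC38A4, a sodium-coupled transporter of neutral amino acids. SLC22A5, the high-affinity carnitine transporter, SLC22A15 of the same organic ion family and SLC37A2, a sugar phosphate exchanger of the endoplasmic reticulum, rose by less, and SLC46A3, a lysosomal carrier, fell. A gene was called here when edgeR's quasi-likelihood test gave an adjusted p under 0.01 and the fold change reached 1.5, with Benjamini-Hochberg adjustment over all 15298 genes tested. The 6 members called were 4.38% of the 137, beside 2.71% of all genes tested and 3.05% of those with a mean of at least 5 CPM, so the share of members was near that of other genes. The median log2 fold change of the members was 0.03 and that of all genes tested was 0.00. In these bulk samples fewer cells with a message and less of it per cell cannot be told apart.

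RefSeq promoter windows (GRCh38.p14, 250 bases before the annotated start) were at hand for 3 of the 5 carriers raised by Dex. They are shown because the members rose together under the hormone, and each was searched for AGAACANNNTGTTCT, an element recognised by the glucocorticoid receptor whose reverse complement is the same, and for its single hexamer, AGAACA or TGTTCT. Capitals mark a hexamer, 5′ to 3′ on the strand of the gene. The windows lie at chr12:46825998-46826247 on the minus strand for SLC38A4, inside the longer GENCODE 44 gene but over none of its exons, at chr5:132369460-132369709 on the plus strand for SLC22A5, where the window covers part of an exon of the antisense non-coding gene MIR3936HG, and at chr1:115976263-115976512 on the plus strand for SLC22A15, with no other annotated gene.
SLC38A4: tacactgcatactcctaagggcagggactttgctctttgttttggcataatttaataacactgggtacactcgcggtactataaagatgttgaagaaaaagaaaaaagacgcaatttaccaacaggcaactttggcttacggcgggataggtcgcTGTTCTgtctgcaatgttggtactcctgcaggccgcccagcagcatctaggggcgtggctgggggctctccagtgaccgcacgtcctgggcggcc
SLC22A5: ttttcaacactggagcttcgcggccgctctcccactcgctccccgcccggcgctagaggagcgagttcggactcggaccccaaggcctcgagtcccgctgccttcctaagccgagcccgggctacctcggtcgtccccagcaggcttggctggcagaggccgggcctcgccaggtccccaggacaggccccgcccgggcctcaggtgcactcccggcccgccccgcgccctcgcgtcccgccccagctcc
SLC22A15: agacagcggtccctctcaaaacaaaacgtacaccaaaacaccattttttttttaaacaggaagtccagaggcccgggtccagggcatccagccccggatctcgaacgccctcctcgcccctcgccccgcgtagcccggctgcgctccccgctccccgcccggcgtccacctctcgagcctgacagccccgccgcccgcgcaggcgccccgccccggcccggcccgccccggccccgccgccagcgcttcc
The SLC38A4 window held 1 hexamer, which begins 95 bases before the start, and the other windows held none. A hexamer stood in 7.08% of the 10035 promoters of genes tested and in 10.3% of the 107 promoters of members, and the full element stood in 0 of both. The SLC22A5 and SLC22A15 windows were rich in G and C, at 74.0% and 71.2%, against 51.6% in SLC38A4 and a median of 65.2% over the genes tested.

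SLC7A2 stood at 46.3, 40.6 and 36.8 CPM in the 3 siNS Eth libraries and at 147, 138 and 153 CPM in the siNS Dex libraries. The groups lay far apart, with means of 41.2 ± 4.77 and 146 ± 7.49 CPM (SD, n = 3), and the fold change was 3.55 (log2 1.83, SE 0.0954, edgeR adjusted p = 1.28e-13). An exact two-sided permutation test of 3 libraries against 3 cannot give less than p = 0.1, which it gave here. SLC38A4 rose from 3.97, 4.28 and 4.14 CPM to 11.0, 11.2 and 11.3 CPM, a log2 change of 1.43 (SE 0.181, edgeR adjusted p = 2.1e-06), again with no overlap. SLC22A5 rose from 9.49, 8.87 and 6.63 CPM to 18.3, 14.4 and 15.1 CPM, a log2 change of 0.94 (edgeR adjusted p = 5.18e-05).

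SLC37A2 was at 6.07, 6.52 and 6.63 CPM with Eth and at 11.9, 10.1 and 10.7 CPM with Dex, a log2 change of 0.77 (edgeR adjusted p = 0.000157). SLC22A15 was at 23.2, 18.8 and 22.9 CPM with Eth and at 36.7, 33.7 and 32.9 CPM with Dex, a log2 change of 0.67 (edgeR adjusted p = 0.00032). Without siNS Eth replicate 2 it was 0.58, just under the fold limit. SLC46A3 went the other way, from 26.7, 20.4 and 23.6 CPM to 17.3, 14.8 and 14.8 CPM, and fell by 0.59 on the log2 scale (edgeR adjusted p = 0.00116), which lies at the fold limit. It fell by 0.49 without siNS Eth replicate 1, by 0.56 without siNS Dex replicate 2 and by 0.55 without siNS Dex replicate 3, and was then no longer called. Its call was also lost when only the libraries compared were fitted (a fall by 0.58) and with no filter on low counts (0.57). Scaled by library size alone, 5 members were called higher and 2 lower.

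**Figure D1:**
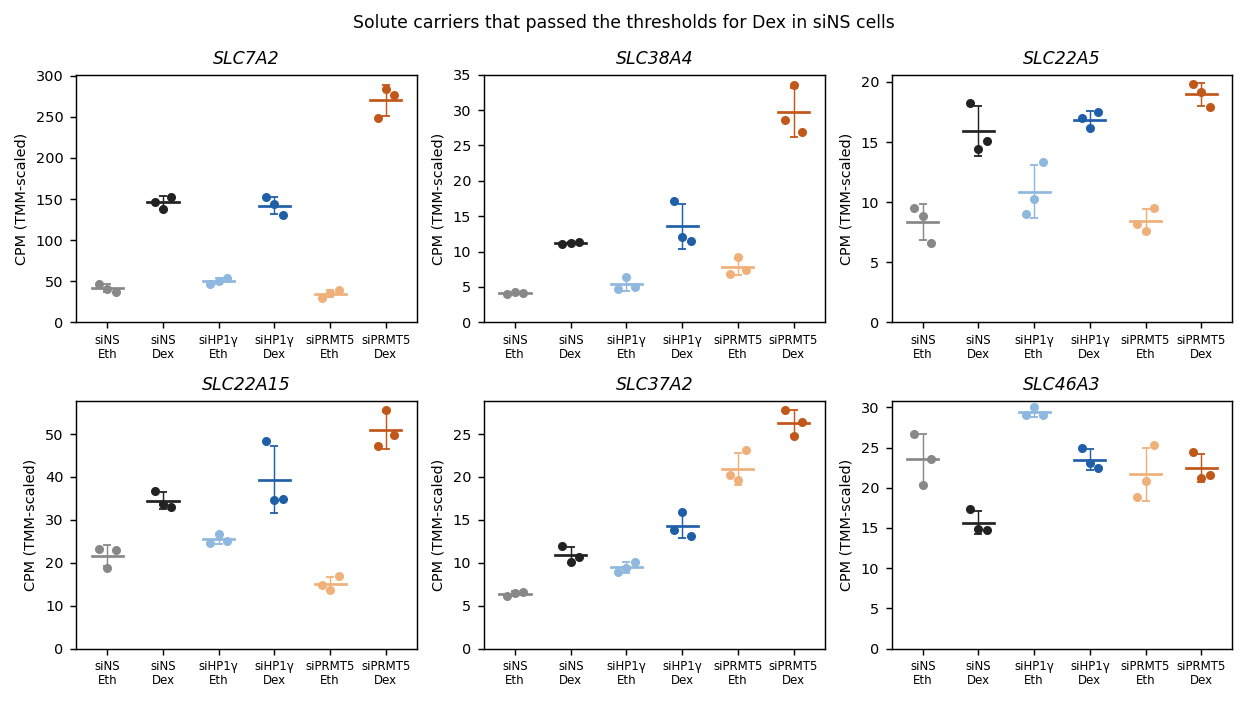
CPM (TMM-scaled) of the 6 carriers called for Dex in siNS cells, in each of the 18 libraries. Points are libraries, horizontal lines the means and error bars the SD of 3 replicates. SLC7A2 in siPRMT5 Dex lies at 249 to 284 CPM, above every other library, and SLC46A3 is lower with Dex in siNS but not in siPRMT5 cells.

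In siHP1γ cells Dex called 6 members, 5 higher and 1 lower, beside 1.67% of all genes tested and 1.84% of those with at least 5 CPM. SLC7A2 rose from 46.7, 49.7 and 53.7 CPM to 152, 143 and 131 CPM (log2 1.51), and SLC38A4 rose by 1.34. SLC22A15 (0.63), SLC22A5 (0.63) and SLC37A2 (0.59) rose as well, and SLC2A12, a facilitative glucose transporter, fell by 0.76 on the log2 scale. The calls of SLC22A15, SLC22A5 and SLC37A2 were lost under some settings. Fitted on the compared libraries only, SLC22A5 and SLC37A2 missed the limit of 0.01 (edgeR adjusted p = 0.0148 and 0.0127). The SLC22A15 value was 0.46 without siHP1γ Dex replicate 1. The SLC37A2 value was 0.52 without siHP1γ Dex replicate 2 and 0.56 without siHP1γ Eth replicate 1. SLC22A5 missed the adjusted p of 0.01 in edgeR without siHP1γ Dex replicate 1 (log2 0.62, adjusted p = 0.0111) or 3 (0.60, adjusted p = 0.0156) and without siHP1γ Eth replicate 1 (0.52, adjusted p = 0.0471) or 2 (0.58, adjusted p = 0.0325). The test of the difference itself took the Dex response in siHP1γ minus that in siNS cells. In edgeR it called 0 members, beside 0.399% of all genes tested and 0.535% of those with at least 5 CPM. With DESeq2 it called 0 as well. An unadjusted p under 0.05 in edgeR was reached by 21 members, and the share of all genes at that limit was not counted.

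In siPRMT5 cells Dex called 12 members, 7 higher and 5 lower, beside 5.44% of all genes tested and 5.70% of those with at least 5 CPM. SLC7A2 rose from 29.7, 36.0 and 39.0 CPM to 249, 284 and 277 CPM, a fold change of 7.73 (log2 2.95, SE 0.0978, edgeR adjusted p = 5.04e-18). SLC38A4 rose by 1.94, SLC22A15 by 1.74 and SLC22A5 by 1.16 on the log2 scale. SLC26A2, a sulfate transporter (0.81), SLC1A3, a glutamate and aspartate transporter (0.64), and SLC38A1 (0.64) were called for Dex in this siRNA condition. For SLC1A3 the difference from the siNS response did not pass its own test (0.33, edgeR adjusted p = 0.425), and its change was 0.48 without siPRMT5 Dex replicate 2 and 0.54 without siPRMT5 Eth replicate 1. That of SLC38A1 was 0.52 without siPRMT5 Dex replicate 2. SLC2A12 fell by 1.36, the prostate-associated SLC45A3 by 0.94, the fatty acid carrier SLC27A1 by 0.87, the iron exporter SLC40A1 by 0.74 and SLC45A4 by 0.62. The SLC40A1 value was a fall by 0.61 without siPRMT5 Eth replicate 3, where the adjusted p in edgeR was 0.0113.

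The Dex response differed between siPRMT5 and siNS cells for 8 members, 5 with a positive and 3 with a negative difference, beside 3.80% of all genes tested and 4.75% of those with at least 5 CPM. The difference of log2 responses was 1.12 for SLC7A2 (SE 0.135, edgeR adjusted p = 1.44e-05), 1.07 for SLC22A15 (SE 0.174, adjusted p = 0.000722), and −0.80 for SLC2A12 (SE 0.155, adjusted p = 0.00353). SLC22A15 started lower, at 14.9, 13.6 and 16.9 CPM in siPRMT5 Eth, and reached 47.2, 55.7 and 49.7 CPM with Dex, above all siNS Dex libraries. SLC2A12 started at 36.5, 38.9 and 45.9 CPM in siPRMT5 Eth, above the 20.5, 19.1 and 21.1 CPM of siNS Eth, and stood at 15.2, 17.6 and 14.4 CPM with Dex, where its range overlapped the 14.7, 12.2 and 14.3 CPM of siNS Dex. Here the 2 siRNA conditions differed before the hormone and not detectably after it (log2 0.20, edgeR adjusted p = 0.181). TBPL1, a gene that overlaps SLC2A12, was also lower with Dex in siNS cells (log2 −0.40, edgeR adjusted p = 0.0179). It was higher in siPRMT5 Dex than in siNS Dex (log2 0.44, adjusted p = 0.00179), and reads of the pair may not be told apart. SLC27A1 was higher in siPRMT5 Eth, at 21.0, 17.8 and 19.7 CPM, than in siNS Eth, at 14.1, 16.7 and 15.2 CPM, and lower with Dex, at 11.7, 10.5 and 9.73 CPM against 13.2, 13.5 and 14.4 CPM in siNS Dex. Its difference of responses was −0.71 (edgeR adjusted p = 0.00767).

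The other 4 differences of response were nearer to the threshold. That of SLC38A1 was 0.53 (edgeR adjusted p = 0.0183). Its siPRMT5 Eth libraries, at 291, 325 and 323 CPM, were the lowest of all 18, and its call was lost without siNS Eth replicate 1 (adjusted p = 0.0529), siPRMT5 Eth replicate 1 (adjusted p = 0.0546) or siPRMT5 Dex replicate 2 (adjusted p = 0.0617), in edgeR. SLC46A3 (0.63, edgeR adjusted p = 0.0274) stood at 18.9, 20.8 and 25.3 CPM without and 24.4, 21.2 and 21.6 CPM with Dex in siPRMT5 cells, so these groups overlapped. SLC12A4, a potassium-chloride cotransporter, had a difference of −0.50 (edgeR adjusted p = 0.0297), and SLC26A2 one of 0.55 (adjusted p = 0.0402). Leaving out 1 of several libraries ended these 3 calls in edgeR, with adjusted p-values up to 0.0887, 0.115 and 0.115. For SLC46A3 these were siNS Dex 2 and 3, siNS Eth 1 and 3, siPRMT5 Dex 1 and siPRMT5 Eth 1 and 2. For SLC12A4 they were siNS Dex 1 and 3, siNS Eth 1 and 3, siPRMT5 Dex 1 and 2 and siPRMT5 Eth 1 and 2. For SLC26A2 they were all siNS libraries, siPRMT5 Dex 2 and 3, siPRMT5 Eth 1 and 3 and siHP1γ Eth 2. The number of members called fell to 4 without siNS Eth replicate 1 or siPRMT5 Eth replicate 1 and to 5 without siNS Eth replicate 3 or siNS Dex replicate 3, and rose to 14 without siNS Eth replicate 2.

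**Figure D2:**
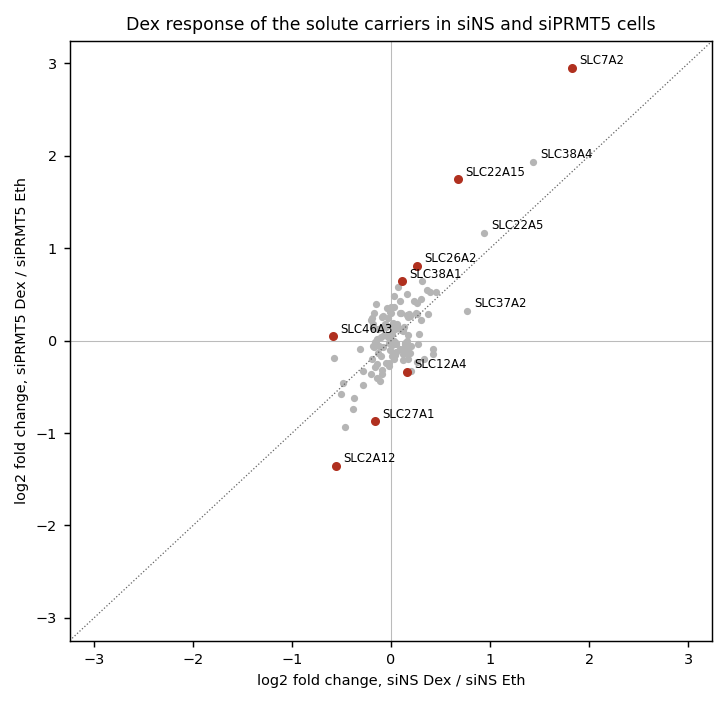
Log2 fold change with Dex in siPRMT5 cells (y axis) against that in siNS cells (x axis) for the 137 carriers. Red points are the 8 members whose response differed between the conditions, grey points the others, and the dotted line marks equal responses. SLC7A2 lies at 1.83 and 2.95, above the line, and SLC2A12 at −0.55 and −1.36, below it.

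HP1γ depletion with Dex, siHP1γ Dex against siNS Dex, called 45 members at an adjusted p under 0.05, 26 higher and 19 lower. SLC17A5, SLC37A3 and SLC41A1 had the largest decreases, and SLC1A3, a glutamate transporter, and the iron exporter SLC40A1 the largest increases. The 45 were 32.8% of the members, beside 24.0% of all genes tested and 28.1% of those with at least 5 CPM. Over all genes tested 11.7% were called higher and 12.3% lower. The median log2 change was 0.05 for the members and 0.00 for all genes tested. Scaled by library size alone, which moved the median of all genes by 0.08, 33 members were called higher and 12 lower. Each of the 16 members with the largest changes (8 in each direction) kept its direction and its call under every alternative run, leaving out each library included. These 16 were picked for their size in these same data, so this is only a description.

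The largest decrease was that of SLC17A5, sialin, which exports sialic acid from the lysosome (chr6:73593379-73653992, minus strand). It stood at 50.1, 50.1 and 47.2 CPM in siNS Dex and at 23.3, 21.4 and 18.1 CPM in siHP1γ Dex, and fell by 1.23 on the log2 scale (SE 0.0914, edgeR adjusted p = 2.61e-10). SLC37A3, a lysosomal carrier linked to the release of bisphosphonates, stood at 45.6, 42.4 and 45.0 CPM and then at 24.8, 19.8 and 17.6 CPM, and fell by 1.09. Neither gene passed the test in siPRMT5 Dex against siNS Dex, with log2 changes of −0.21 for SLC17A5 (edgeR adjusted p = 0.0573) and −0.15 for SLC37A3 (adjusted p = 0.23). For both genes all siPRMT5 Dex libraries still lay below all siNS Dex libraries, while the siPRMT5 Eth and siNS Eth libraries overlapped. Between the depletions, siPRMT5 Dex against siHP1γ Dex, SLC17A5 and SLC37A3 differed by 1.02 and 0.94 (edgeR adjusted p = 1.12e-09 and 5.12e-08).

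Among the 23 carriers of metals, 3 rose and 6 fell with siHP1γ, beside 11.7% and 12.3% of all genes tested. Their median log2 change was −0.01, beside 0.00 for all genes tested. The same shares of all genes stand beside the counts of the other classes, and no class was tested as a set. SLC41A1, a sodium-magnesium exchanger of the plasma membrane, went from 67.3, 63.1 and 60.7 CPM to 35.0, 35.4 and 30.4 CPM and fell by 0.92 on the log2 scale. SLC41A3, which extrudes magnesium from mitochondria, fell by 0.64, from 56.3, 53.1 and 52.3 CPM to 33.5, 37.1 and 33.2 CPM. The copper importer SLC31A1 fell by 0.57 and the zinc importer SLC39A10 by 0.51. Ferroportin, SLC40A1, the iron exporter, went up, from 10.9, 10.1 and 10.7 CPM to 20.8, 19.2 and 20.4 CPM (log2 0.93, edgeR adjusted p = 3.29e-06). The groups did not overlap for SLC41A1, SLC41A3, SLC31A1, SLC39A10 or SLC40A1.

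Among the 18 carriers of inorganic ions, 5 rose and 2 fell. Among the 35 mitochondrial carriers, 4 rose and 5 fell. The glutamate carrier SLC25A22 fell by 0.70, from 17.8, 15 and 16.2 CPM to 10.1, 10.6 and 9.59 CPM, and SLC25A27, an uncoupling protein relative, rose by 0.60. Of the 20 amino acid carriers 4 rose and 2 fell. SLC1A3, with 7.95, 8.61 and 7.16 CPM in siNS Dex and 15.9, 19.0 and 16.5 CPM in siHP1γ Dex, had the largest increase of all 137 (log2 1.11, SE 0.141, edgeR adjusted p = 1.7e-06), and the proton-coupled SLC36A1 rose by 0.64.

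Among the 9 sugar carriers 3 rose and 1 fell. SLC2A12 rose by 0.81 on the log2 scale, to 26.4, 23.2 and 22.9 CPM from 14.7, 12.2 and 14.3 CPM. TBPL1, a gene that overlaps it, also rose, by 0.53 (edgeR adjusted p = 0.000645), and reads of the pair may not be told apart, since the strand setting of the counting is not given in the sources used here. SLC45A3 rose by 0.82, SLC29A3, the lysosomal nucleoside transporter, by 0.61 and the lysosomal SLC46A3 by 0.59. In the class of nucleosides, vitamins, choline and fatty acids 4 of 13 rose and 1 fell, in that of nucleotide sugars 2 of 9 rose and 2 fell, and in that of carboxylates 1 of 10 rose and 0 fell.

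PRMT5 depletion with Dex, siPRMT5 Dex against siNS Dex, called 76 members, 34 higher and 42 lower. The copper importer SLC31A1 had the largest decrease, the mitochondrial citrate carrier SLC25A1 and SLC43A3 were also among the 8 largest, and SLC38A4, SLC1A3 and SLC37A2 had the largest increases. The 76 were 55.5% of the members, beside 42.4% of all genes tested and 49.3% of those with at least 5 CPM. Over all genes tested 20.6% were called higher and 21.9% lower. The median log2 change was 0.02 for the members and 0.00 for all genes tested. The 16 members with the largest changes (8 in each direction) kept direction and call under every alternative run. They were picked for their size in these same data, so this is only a description. SLC25A45, which passed the level limit through the libraries where it was higher, is among them.

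SLC31A1, the high-affinity copper importer (chr9:113221544-113264492, plus strand), had the largest decrease. It stood at 77.6, 73.4 and 80.1 CPM in siNS Dex and at 17.3, 18 and 21.4 CPM in siPRMT5 Dex, or 77.0 ± 3.36 against 18.9 ± 2.19 CPM (SD, n = 3), which left 24.4% (log2 −2.03, SE 0.0873, edgeR adjusted p = 1.73e-15). CDC26, which overlaps it, was at 4.60 CPM and fell by 0.69 on the log2 scale (edgeR adjusted p = 0.00815). Its neighbour and relative SLC31A2 (chr9:113150976-113164140, plus strand), which is linked to copper in endosomes and lysosomes, moved the other way, from 16.8, 20.2 and 18.9 CPM to 33.1, 30.7 and 38.6 CPM (log2 0.87, edgeR adjusted p = 8.87e-07). FKBP15, which overlaps SLC31A2, rose by 0.45 (edgeR adjusted p = 0.000106), and the strand limit holds for this pair too.

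Of the 23 carriers of metals 4 rose and 10 fell, beside 20.6% and 21.9% of all genes tested. Their median log2 change was −0.13, beside 0.00 for all genes tested. The same shares of all genes stand beside the counts of the other classes, and no class was tested as a set. SLC11A2, the divalent metal transporter that imports iron, rose from 37.1, 34.5 and 34.3 CPM to 71.8, 73.0 and 75.0 CPM (log2 1.05, SE 0.0825, edgeR adjusted p = 1.3e-10), while the exporter SLC40A1 fell to 7.04, 6.33 and 5.32 CPM (log2 −0.76, edgeR adjusted p = 0.00016). SLC41A3 rose to 97.4, 89.8 and 95.5 CPM (log2 0.81). SLC41A1 stood at 63.9, 61.3 and 59.3 CPM, overlapping siNS Dex (log2 −0.05, edgeR adjusted p = 0.673). SLC49A4, a lysosomal membrane protein, fell by 0.98.

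**Figure D3:**
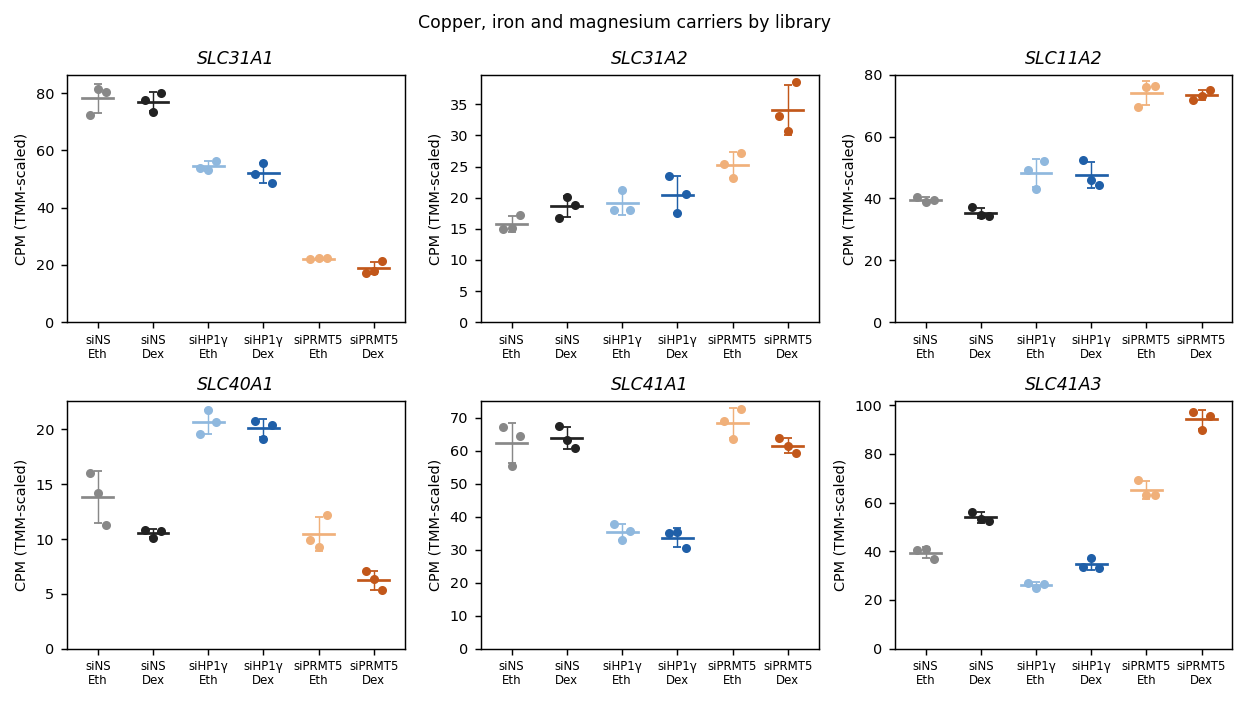
CPM (TMM-scaled) of 6 carriers of copper (SLC31A1, SLC31A2), iron (SLC11A2, SLC40A1) and magnesium (SLC41A1, SLC41A3) in each of the 18 libraries. Points are libraries, horizontal lines the means and error bars the SD of 3 replicates. SLC41A1 is low in the siHP1γ libraries, and SLC31A1 is lowest in the siPRMT5 libraries. SLC41A3 is on opposite sides of siNS in the depletions, with and without Dex. SLC40A1 is so with Dex, while its siPRMT5 Eth and siNS Eth libraries overlap.

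Of the 18 carriers of inorganic ions 7 rose and 2 fell. Of the 35 mitochondrial carriers 8 rose and 10 fell. SLC25A1, the citrate carrier, fell from 75.8, 70.4 and 81.4 CPM to 35.1, 27.5 and 31.3 CPM (log2 −1.28), and SLC25A44, which brings branched-chain amino acids into mitochondria, fell from 74.6, 69.3 and 68.4 CPM to 35.3, 29.8 and 31.3 CPM (log2 −1.14). SLC25A45 rose from 4.33, 4.03 and 2.99 CPM to 7.92, 6.74 and 9.28 CPM (log2 1.06). Its mean over the 18 libraries was 5.12 CPM, and its siNS Dex libraries lay under 5 CPM. It thus passed the level limit through the libraries where it was higher, so its rise is only a description. The ADP/ATP carrier SLC25A5 did not pass the test, at 673, 655 and 697 CPM against 620, 644 and 613 CPM (log2 0.11, edgeR adjusted p = 0.166).

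Of the 20 amino acid carriers 6 rose and 5 fell. SLC38A4 rose from 11.0, 11.2 and 11.3 CPM to 28.5, 33.5 and 26.9 CPM, the largest increase of all 137 (log2 1.41, SE 0.135, edgeR adjusted p = 5.08e-09), SLC1A3 rose by 1.34 to 18.9, 23.9 and 16.6 CPM, and SLC7A2 rose by 0.89. The glutamine transporter SLC38A1 fell by 0.66, from 748, 792 and 768 CPM to 448, 568 and 447 CPM, and SLC43A3 fell by 1.24. Among the other classes, SLC37A2 rose by 1.26, from 11.9, 10.1 and 10.7 CPM to 27.8, 24.8 and 26.4 CPM. SLC35A2, which brings UDP-galactose into the Golgi apparatus, fell by 1.15, and SLC47A1, an exporter of organic cations, fell by 0.99. In the class of nucleotide sugars 3 of 9 rose and 4 fell, in that of nucleosides and vitamins 4 of 13 rose and 4 fell, in that of carboxylates 2 of 10 rose and 4 fell, and among the sugar carriers 0 of 9 rose and 3 fell.

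**Figure D4:**
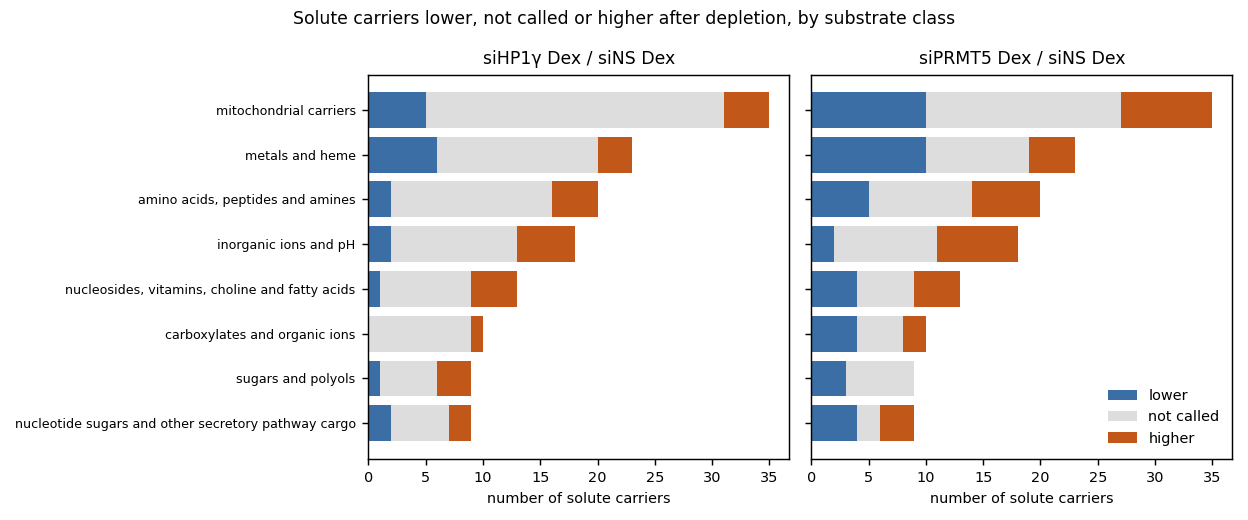
Number of carriers in each substrate class (x axis) that were called lower (blue), not called (grey) or called higher (orange) in siHP1γ Dex against siNS Dex (left) and siPRMT5 Dex against siNS Dex (right). With siPRMT5, 10 of 23 metal carriers fell and 4 rose, and with siHP1γ 6 fell and 3 rose. Over all genes tested 21.9% fell and 20.6% rose with siPRMT5, and 12.3% fell and 11.7% rose with siHP1γ.

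The comparisons of siHP1γ Dex and of siPRMT5 Dex share the siNS Dex libraries, so their calls are only set side by side. There were 10 members lower in both, 10 higher in both, 10 higher with siHP1γ and lower with siPRMT5, and 4 lower with siHP1γ and higher with siPRMT5. The same joint counts were not made for all genes tested, so whether these are many or few cannot be told. The direct comparison of siPRMT5 Dex with siHP1γ Dex, in which no siNS library enters, called 77 members, 35 higher and 42 lower, beside 49.9% of all genes tested and 56.4% of those with at least 5 CPM. It shares the depletion libraries with both, so for members with opposite calls its values are only a description. Those lower with siHP1γ and higher with siPRMT5 included SLC41A3, SLC25A16 and SLC25A26, the last 2 named after their values were seen. Their log2 differences between the depletions were 1.45, 0.92 and 0.59. In the other direction, SLC45A3 differed by −1.74 and SLC40A1 by −1.68.

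The depletions were measured a second time in the Eth libraries, which the comparisons with Dex do not use. siHP1γ Eth against siNS Eth called 52 members, 32 higher and 20 lower, beside 31.8% of all genes tested and 37.6% of those with at least 5 CPM. Of these, 33 were among the 45 called with Dex (63.5% of the 52 and 73.3% of the 45), and all 33 had the same sign. Over the genes tested with at least 5 CPM, 2070 were shared (48.3% of those called with Eth and 64.5% of those called with Dex), and 2063 of them had the same sign. siPRMT5 Eth against siNS Eth called 68 members, 30 higher and 38 lower, beside 42.1% of all genes tested and 48.5% of those with at least 5 CPM. Here 53 were shared with the 76 called with Dex (77.9% and 69.7%), and 51 of them had the same sign. Beside these stood 3889 shared genes with at least 5 CPM (70.2% and 69.1%), of which 3834 had the same sign. With siPRMT5 the recurrence of the members was thus near that of other genes. With siHP1γ it was higher in the members, at 63.5% and 73.3% beside 48.3% and 64.5%, a difference that was not tested. The log2 changes with and without Dex had Pearson's r of 0.81 for siHP1γ and 0.84 for siPRMT5 across the 137 members, which are not independent replicates, beside 0.74 and 0.83 across the 11408 genes tested with at least 5 CPM.

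Of the 16 members with the largest changes in siPRMT5 Dex, SLC7A2 was not called in siPRMT5 Eth and had the opposite sign there (log2 −0.24, edgeR adjusted p = 0.0679), at 29.7, 36.0 and 39.0 CPM against 46.3, 40.6 and 36.8 CPM in siNS Eth. SLC31A1 stood at 22.0, 22.3 and 22.4 CPM in siPRMT5 Eth and at 72.4, 81.6 and 80.5 CPM in siNS Eth (log2 −1.81, edgeR adjusted p = 1.61e-14). SLC37A2 was higher in siPRMT5 Eth, at 20.2, 19.6 and 23.1 CPM, than in siNS Eth, at 6.07, 6.52 and 6.63 CPM (log2 1.71). The difference from the 1.26 with Dex did not pass its test (−0.45, edgeR adjusted p = 0.129). SLC37A3 fell by 1.13 and SLC17A5 by 0.94 on the log2 scale in siHP1γ Eth, and SLC1A3 rose by 1.23. The 2 members whose call changed sign between the PRMT5 comparisons were SLC22A15, lower without Dex (log2 −0.51, edgeR adjusted p = 0.00341) and higher with it (0.56, adjusted p = 0.000189), and SLC27A1, higher without (0.35, adjusted p = 0.00861) and lower with Dex (−0.36, adjusted p = 0.0107). The call of SLC27A1 without Dex was lost without siNS Eth replicate 1 (0.28, edgeR adjusted p = 0.0541) or siPRMT5 Eth replicate 1 (0.29, adjusted p = 0.0524), and that with Dex without siNS Dex replicate 3 (−0.31, adjusted p = 0.0543) or siPRMT5 Dex replicate 3 (−0.30, adjusted p = 0.0566).

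**Figure D5:**
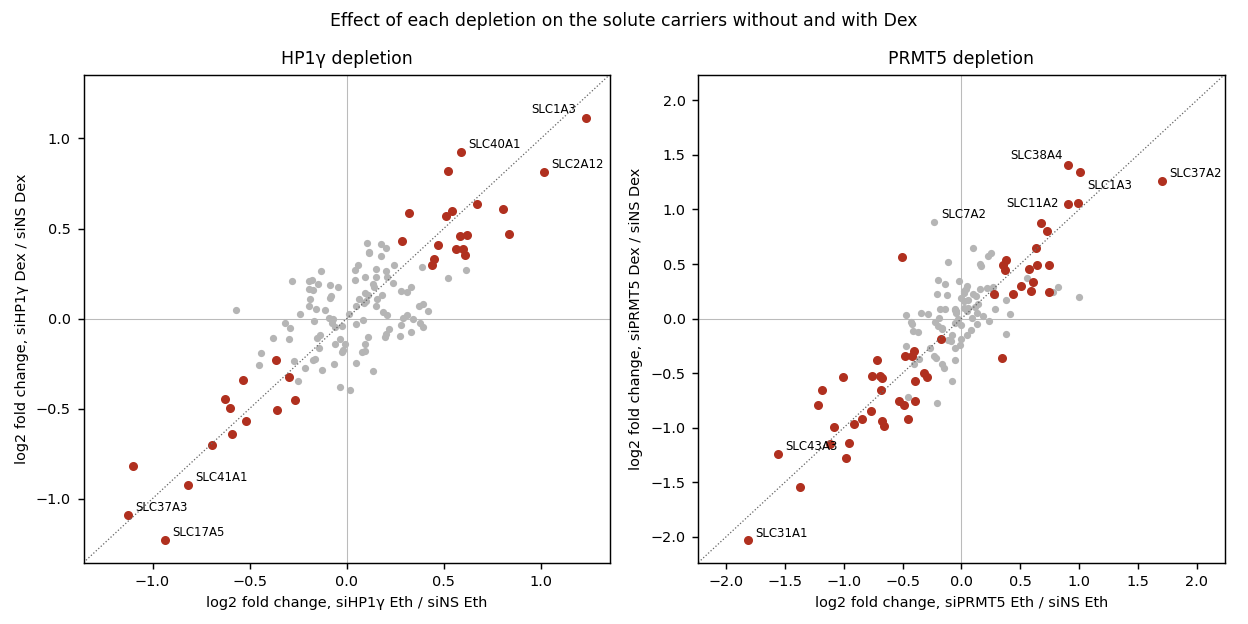
Log2 fold change of the 137 carriers after depletion with Dex (y axis) against that without Dex (x axis), for HP1γ (left) and PRMT5 (right). Red points are members called in both comparisons, grey points the others, and the dotted line marks equal changes. SLC31A1 lies lowest after PRMT5 depletion, at −1.81 and −2.03, and SLC7A2 lies at −0.24 and 0.89.

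Over the 10 comparisons 24 members (17.5%) were called in none, beside 18.1% of the genes tested with at least 5 CPM, among them the phosphate carrier SLC20A1, the zinc carrier SLC39A6 and the nucleoside carrier SLC29A1. SLC20A1 ranged from 234 to 283 CPM and SLC29A1 from 81.4 to 100.4 CPM over all libraries. At least 1 of the 4 depletion comparisons called 106 members (77.4%, beside 77.8% of the genes with at least 5 CPM), and all 4 called 19 (13.9%, beside 8.00%), SLC31A1, SLC1A3, SLC25A22, SLC40A1 and SLC41A3 among them. The siPRMT5 Eth call of SLC40A1 (log2 −0.39, edgeR adjusted p = 0.0198) came from overlapping groups. It was lost without siNS Eth replicate 1 or 2 or siPRMT5 Eth replicate 1 or 2, with log2 changes of −0.29, −0.38, −0.35 and −0.32 and adjusted p-values up to 0.121. Dex called 14 members in at least 1 of the 3 siRNA conditions (10.2%, beside 6.63%) and 4 in all 3 (2.92%, beside 1.31%), which were SLC7A2, SLC38A4, SLC22A5 and SLC22A15.

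Related gene lists were counted in the same fits, in which 2.71% of all genes tested were called for Dex in siNS cells, 24.0% with siHP1γ Dex and 42.4% with siPRMT5 Dex. Of the 13 carriers left out by name, 0 were called for Dex in siNS cells, with an adjusted p under 0.01 and 1.5-fold in edgeR, while 8 were called with siHP1γ Dex (3 higher, 5 lower) and 8 with siPRMT5 Dex (1 higher, 7 lower). The leucine transporter SLC7A5 had log2 changes of −0.90 and −2.06, and the arginine transporter SLC7A1 of −0.98 and −1.06, in the comparisons of siHP1γ Dex and siPRMT5 Dex with siNS Dex. Of 31 tested carriers under other symbols, 3 were called for Dex in siNS cells, 9 with siHP1γ Dex and 18 with siPRMT5 Dex (5 higher, 13 lower), with the heme-linked FLVCR2 higher by 1.80 with Dex and the mitochondrial serine carrier relative SFXN2 lower by 2.29 on the log2 scale with siPRMT5 Dex. Of 10 tested subunits of the sodium pump and of carrier partners, 0 were called for Dex, 6 with siHP1γ Dex and 4 with siPRMT5 Dex. OSTM1, a lysosomal chloride channel partner, fell by 1.24 and 1.30.

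Of 22 tested ABC transporters, which use ATP directly, 1 was called for Dex in siNS cells, 5 with siHP1γ Dex and 9 with siPRMT5 Dex, and these depletion counts are near the 24.0% and 42.4% of all genes tested. The peroxisomal ABCD2, at a mean of only 1.42 CPM, rose by 3.13 on the log2 scale with Dex in siNS cells (SE 0.558). The organic anion exporter ABCC3 rose by 1.15 and 1.81 on the log2 scale with the depletions. Of 15 tested regulators of carrier activity, 3 were called for Dex, with TXNIP, which lowers glucose uptake, higher by 1.54, the kinase SGK1, which keeps many carriers at the plasma membrane, higher by 1.39, and the ubiquitin ligase NEDD4L lower (log2 −0.64). With siHP1γ Dex 0 of these rose and 5 fell, beside 11.7% and 12.3% of all genes tested, SGK1 by 0.91 on the log2 scale, and with siPRMT5 Dex 7 rose and 3 fell, beside 20.6% and 21.9%.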

How the data were processed

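RNA was measured by sequencing of 18 MDA-MB-231 libraries (Lexogen kits, NextSeq500). The authors deposited whole-number read counts per gene symbol, made by mapping on hg38 with Bowtie2 (2.4.2) and counting with HTSeq (0.9.1). The annotation, the strand setting and the read length are not given in the sources used here. A table of the authors' own comparisons (fold changes and p-values) was not used.

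Counts were normalized by TMM, filtered with filterByExpr and fitted with edgeR (4.0.16, R 4.3.3) by the quasi-likelihood method, with 1 mean for each of the 6 conditions and 12 residual degrees of freedom, so that all 18 libraries shared one estimate of the spread. p-values were adjusted by the Benjamini-Hochberg method over all 15298 genes tested, and all 137 members were among them. The Dex comparisons were called at a 1.5-fold change with an adjusted p under 0.01, the other comparisons and the differences of response at an adjusted p under 0.05. CPM of members printed for libraries and conditions are TMM-scaled. Membership, the markers of the line, the levels per kb and the means of CDC26 and ABCD2 over the 18 libraries used CPM without TMM. Coordinates and exon lengths came from GENCODE 44 (hg38), in which 109 members overlap another annotated gene, 46 of them a protein-coding one, and 16 members have pseudogenes with similar symbols, so their reads may be shared. Promoters came from RefSeq (GRCh38.p14).

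The members, substrate classes and gene lists were chosen with earlier results of these data known. Members were named if called for Dex in siNS cells, if among the 8 largest increases or decreases of a depletion with Dex, if called for a difference of response, or if the most abundant per kb of their class; others are named where they are few. Some members that met this rule are counted in the totals but not reported here by name. Replicates are described as biological, and pairs of the same condition differed by 2.10 to 12.3 times the variance that counting alone gives (chi-square per degree of freedom). Totals of 8682992 to 12472381 counts per library limit the precision of members near 5 CPM. Alternatives were DESeq2 (1.42.0), its size factors, library size alone, no filter, a minimum of 10 counts, only the libraries compared, a replicate block, other thresholds and leaving out each library. The test was checked on simulated counts.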

Additional observations from a re-analysis of the deposited data

Results flagged for a closer look

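The Dex response of 8 members differed between siPRMT5 and siNS cells by a test of the difference itself. This was edgeR's quasi-likelihood test, at an adjusted p under 0.05 over all genes tested. The 8 were 5.84% of the members, beside 3.80% of all genes tested and 4.75% of those with at least 5 CPM. Leaving out 1 library gave 4 to 14 members. The calls of SLC46A3, SLC26A2, SLC38A1 and SLC12A4 were each lost in some of these runs. The difference of log2 responses was positive for SLC7A2 (1.12), SLC22A15 (1.07), SLC46A3 (0.63), SLC26A2 (0.55) and SLC38A1 (0.53), and negative for SLC2A12 (−0.80), SLC27A1 (−0.71) and SLC12A4 (−0.50). SLC7A2 and SLC22A15 rose in both conditions, by 1.83 and 0.67 in siNS and by 2.95 and 1.74 in siPRMT5 cells. SLC2A12 was lower with Dex in both, at −0.55 in siNS cells, where the fold limit of 1.5 was not reached, and −1.36 in siPRMT5 cells. Its reads may be shared with those of TBPL1, which overlaps it. For the other 5 the response in siNS cells was between −0.59 for SLC46A3 and 0.26 for SLC26A2.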

How the results depend on the processing

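No direction reversed under any alternative run. The thresholds moved the Dex counts most. With a fold change of at least 2, 2 members were called in siNS, 2 in siHP1γ and 5 in siPRMT5 cells, and at an adjusted p under 0.05 with no fold limit 22, 12 and 36 were, because the limits themselves differ. The shares of all genes at these changed limits were not counted, so these counts show only how the calls depend on the limits. Leaving out 1 library at a time gave 5 to 7 members called for Dex in siNS, 4 to 6 in siHP1γ and 12 to 13 in siPRMT5 cells, 34 to 47 for siHP1γ Dex and 64 to 79 for siPRMT5 Dex against siNS Dex, 39 to 55 and 58 to 72 for the same depletions with Eth, 72 to 78 between the depletions, 0 for the difference of response with siHP1γ and 4 to 14 for that with siPRMT5. The last was the only one of these 10 counts to move by over 1.5 times, and its cause was not tested. Of 167 named log2 changes, 11 lost their call under at least 1 other setting (21 of 1169 values) and 30 when 1 library was left out (108 of 3006 values).

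The replicate numbers showed no clear pairing of the libraries. Same-numbered libraries correlated in their deviations from the group means at −0.23 to 0.47, with 5 of 24 pairs over 0.1. Of 18 libraries, 7 correlated best with their own number. Deviations from a mean of 3 libraries depend on each other, so this check cannot decide whether the libraries were paired. With the replicate block the counts were 6, 6 and 13 for Dex in siNS, siHP1γ and siPRMT5 cells, 44 and 75 for siHP1γ Dex and siPRMT5 Dex, 52 and 68 with Eth, 81 between the depletions, and 0 and 8 for the differences of response. Members near 5 CPM, such as SLC25A45 with a standard error of 0.17 in siPRMT5 Dex, carried wider errors than abundant ones, such as SLC25A5 with 0.063.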
